A study of Mus musculus with 10 samples.

Results

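Membrane traffic between organelles is run by Rab GTPases, endosomal sorting complexes and SNARE fusion proteins, and 127 of the 10141 genes in the deposited expression table carry names of these families. They were taken by name alone, as every gene whose symbol starts with Rab and a digit, Vps, Snx, Stx and a digit, Stxbp, Vamp, Snap and a digit, or Unc13. They fall into a Rab group of 50 genes, which includes Rab effectors such as Rab11fip1, an endosomal sorting group of 52 genes (Vps and Snx names) and a SNARE group of 25 genes (syntaxins, Vamp and Snap proteins, and their Stxbp and Unc13 partners). A name does not always give the function: Vps72 is a subunit of chromatin complexes, and it is kept in the counts. In the GENCODE M21 mouse annotation 172 protein-coding symbols match these names, and the 45 without an entry in the table, among them Rab18, Rab4a, Stx4a, Stx6, Vps11, Vps41 and Snap25, were not analysed here.

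RNA sequencing compared leukaemia cells with non-leukaemic myeloid cells sorted from the bone marrow of leukaemic mice. MLL-AF9/GFP cells, which carry a fusion of the MLL and AF9 genes that drives acute myeloid leukaemia together with a green fluorescent reporter, were thawed and injected by tail vein into CD45.1 recipient mice, and marrow was taken once GFP+ cells had reached a set share of the blood. The leukaemia group is the GFP+ cells (5 libraries, replicates 1 to 5) and the myeloid group the GFP-CD11b+ cells of the same kind of marrow (5 libraries, replicates 1 to 5), CD11b being an integrin of mature myeloid cells. No other drug, genotype or time point separates them, recipient age is not among the labels, and both groups come from marrow that carries leukaemia, so no healthy marrow and no normal immature cells were measured. One protocol describes flow sorting of both populations and the design text describes magnetic selection of CD45.2-CD11b+ cells for the myeloid group. The cell type field of all 10 libraries names leukaemia cells and the genotype field reads MLL-AF9/GFP for all of them, so groups were read from the sample titles. No label ties a library to a mouse, so the p-values rest on the spread among these libraries, and that spread may be technical. Leukaemia and stage of maturation cannot be told apart in this comparison, nor can fewer cells of a type and less RNA per cell.

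Rab GTPases cycle between a GDP-bound and a GTP-bound form, and in the GTP-bound form they recruit tethers and motors to one membrane compartment each. Vps proteins build the complexes that sort cargo out of endosomes (retromer, retriever), carry it into the lumen of multivesicular bodies (ESCRT) or hold membranes together before fusion (HOPS, CORVET, GARP), and sorting nexins bind endosomal phosphoinositides and bend membranes. SNARE proteins on facing membranes zip together to fuse them, with Stxbp and Unc13 proteins preparing the syntaxins. In neutrophils and other granule-bearing cells this machinery moves granules to the surface, and in macrophages it carries phagosomes to lysosomes.

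Expression is given as normalised reads, which are the reads of a gene divided by its library's size factor. Both were recovered from the deposited log2 values, with 100% of the low values falling on whole reads (within 0.1 of a read, up to 200 reads). Folds are ratios of mean normalised reads over 5 libraries per group, and levels are not compared between genes because no per-length scale was available. Log2 differences are leukaemia minus myeloid on the deposited variance-stabilised scale, which shrinks differences of genes with few reads. A gene was called when the Benjamini-Hochberg adjusted p of limma was under 0.05, and genes were tested when their mean value lay over 1 unit above the lowest in the table, about 145 normalised reads. Of the 127 genes 112 were tested, and 15 lay below this filter. Nearly every gene of the table passes: 99.8% of the 8079 tested genes were called, 49.1% higher and 50.7% lower in leukaemia, and 17 were not. No gene had an unadjusted p above 0.243, and the sources used here do not say how the genes of the table were chosen. All 112 tested traffic genes were called too, so what describes them is the direction and the size of the difference, not the call.

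Most traffic genes were lower in leukaemia than in the myeloid cells, 87 of 112 (77.7%, against 50.7% of all tested genes), although 12 of those 87 were called higher and 20 were not called when each library was instead scaled to its total over the table. The Rab group had 38 lower and 4 higher of 42 tested, with a median log2 difference of -0.82. The SNARE group had 18 lower and 2 higher of 20, with a median of -0.86. Endosomal sorting stood between these groups and the table as a whole, with 31 lower and 19 higher of 50 and a median of -0.34, beside -0.16 for all tested genes. Scaling to the table total was fitted by voom on recovered reads, which are not shrunken. It thus differs from the main fit in more than the scaling. It moves the median of all tested genes up by 0.59 from that of the main fit, and by 0.64 from that of voom with the authors' size factors. Lower calls were kept by 24 of the 38 Rab, 17 of the 31 sorting and 14 of the 18 SNARE genes, and 5 Rab and 7 sorting genes turned to higher. The group medians then were -0.44, 0.24 and -0.54, beside 0.43 for all genes, so the sorting median changes sign with the scaling. All 25 genes called higher were also higher with that scaling, but it raises the log2 differences in general, so it was no check on them. Of all tested genes 84.8% were then called, 57.2% higher and 27.6% lower, beside 37 higher and 55 lower of the 112 traffic genes. Quantile normalisation called 24 traffic genes higher and 68 lower and left 20 uncalled, beside 47% and 41% of all genes (88% called). The voom fit of recovered reads with the authors' size factors called 25 higher and 87 lower again, beside 49% and 50.6% (99.6% called).

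Differences of at least 1 log2 unit were nearly all downward. In leukaemia 27 traffic genes were lower by that much (13 Rab, 6 sorting and 8 SNARE genes), against 18.1% of all tested genes, and only Snx5 was higher by that much, against 9.52% of all tested genes. The corresponding counts were 3 higher and 16 lower under quantile normalisation (13% and 13.3% of all genes). They were 4 and 49 in voom with the authors' size factors (22.8% and 24.9%), and 16 and 15 in voom with the table total (44% and 13.2%). The share of lower traffic genes at this size was thus near that of all genes under quantile normalisation and with the table total. Against the background share, though, higher genes were fewer in each of these fits. The leukaemia and myeloid values did not overlap for 99 of the 112 genes, beside 86.8% of all tested genes. Summed over the 127 genes, the leukaemia libraries held 269855 ± 3937 normalised reads and the myeloid libraries 457755 ± 42444 (SD, n = 5 each). As a share of all reads in the table the gap was smaller, 1.20 ± 0.014% against 1.31 ± 0.034%. The Rab and SNARE shares were lower in leukaemia (0.593% against 0.664%, and 0.145% against 0.227%), while the sorting share was higher (0.464% against 0.415%), and for each of the 3 groups every leukaemia library lay on the same side of every myeloid library.

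**Figure D1:**
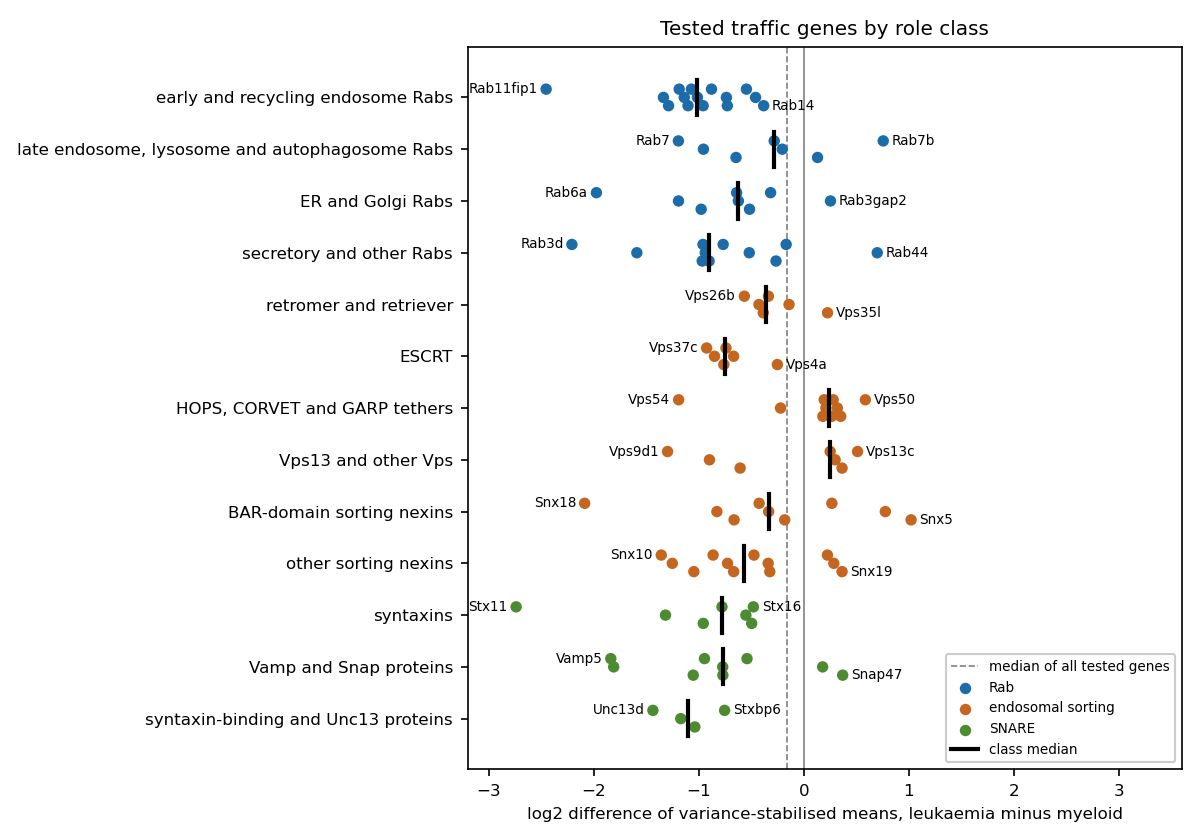
Log2 differences, leukaemia minus myeloid on the deposited variance-stabilised scale (horizontal axis), of the tested traffic genes by role class; colours give the group, black bars the class medians, the solid line 0 and the dashed line the median of all tested genes (-0.16). The class of tethering complexes lies mostly above 0 (median 0.24), whereas the early and recycling endosome Rabs lie wholly below it (median -1.01), with Stx11 at -2.74 and Rab11fip1 at -2.45 as the lowest genes.

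The libraries held 24099575 to 30879739 reads in leukaemia and 24712840 to 32247824 in the myeloid group over the genes of the table. The depth was thus alike, but the authors' size factors were 1.08 to 1.39 in leukaemia and 0.736 to 0.858 in the myeloid libraries. After division by them the table held 22203380 to 22698958 normalised reads in leukaemia and 32545702 to 38114511 in the myeloid libraries. The normalised reads and folds given here carry that offset between the groups. Mature neutrophil markers (11 of 11 with an entry) summed to between 73012 and 76676 normalised reads in leukaemia and between 2862360 and 4534200 in the myeloid libraries, while the 4 immature granulocyte markers summed to 236521 to 298349 in leukaemia and 22707 to 51521 in the myeloid libraries. Myeloid replicates 2 and 4 stood apart from replicates 1, 3 and 5: their dendritic and MHC class II markers (8 of 9) summed to 5793 and 5924, against 39296 to 60845, and their neutrophil markers to 4534200 and 3802550, against 2862360 to 3124600. Monocyte and macrophage markers (7 of 11) summed to 29185 and 34064 in these replicates, to 65658 to 74744 in the other myeloid libraries and to 18215 to 26132 in leukaemia. B cell markers (6 of 8) summed to 483 to 2249 in myeloid and 465 to 591 in leukaemia libraries, T and NK cell markers (10 of 10, Cd3g at 0 in every leukaemia library) to 2387 to 5963 and 2919 to 5879, and mast cell, basophil and eosinophil markers (7 of 8) to 3723 to 6359 and 2227 to 2784. The erythroid list (2 of 8) summed to 2.55 to 62.0 in leukaemia and 5.91 to 245 in the myeloid libraries, and the megakaryocyte and platelet list (1 of 7) to 34.7 to 140 and 111 to 257. A sum can hide members of opposite direction. Of the 3 tested T and NK cell genes 1 was higher and 2 lower in leukaemia with the authors' scaling. For the monocyte and macrophage genes this was 1 and 5 of 6, and for the mast cell, basophil and eosinophil genes 1 and 3 of 4. Of all tested genes 49.1% were higher and 50.7% lower. The part of any of these cell types in the traffic gene differences was not tested. Without myeloid replicates 2 and 4, 86 traffic genes were lower and 27 higher of 114 tested, and Snx32 did not pass.

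All 15 tested early and recycling endosome Rabs were lower in leukaemia, with a median log2 difference of -1.01. When scaled to the table total, however, 2 of them (Rab11b and Rab14) were called higher and 3 were not called. Each role class is to be read beside all tested genes, of which 50.7% were lower and 49.1% higher with the authors' scaling. With the table total these shares were 27.6% and 57.2%. Rab11fip1 encodes an effector that links Rab11 to recycling tubules. It had 771, 751, 808, 739 and 681 normalised reads in leukaemia replicates 1 to 5 and 5162, 7070, 5124, 9056 and 6019 in myeloid replicates 1 to 5. The leukaemia libraries lay close together and far below all myeloid libraries, of which replicates 2 and 4 were the highest, and the fold was 8.65 (log2 difference -2.45, SE 0.123, limma adjusted p = 7.63e-10). The related effectors Rab11fip4 and Rab11fip5 were 3.26-fold and 4.33-fold lower.

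Rab5 isoforms mark early endosomes and drive their fusion. Rab5a had 1191, 1004, 1041, 1063 and 1047 normalised reads in leukaemia and 2424, 2616, 2843, 2817 and 2640 in the myeloid libraries. Every myeloid library was above every leukaemia library, at 2.50-fold (log2 difference -1.01, SE 0.055, limma adjusted p = 1.6e-09). Rab5b was 2.66-fold lower and Rab5c 1.72-fold lower, though Rab5c was not called under quantile normalisation or scaling to the table total. The slow recycling GTPase Rab11a was 2.65-fold lower, with 1195 to 1483 normalised reads in leukaemia and 3236 to 4285 in the myeloid libraries, and its groups did not overlap. Its isoform Rab11b was 1.42-fold lower with the authors' scaling and had log2 differences of 0.09 and 0.13 under quantile normalisation and the table total. Rab35, Rab21 and Rab4b, which serve fast recycling and integrin traffic, were 2.55-fold, 2.30-fold and 2.37-fold lower. The lowest fold of the class was that of Rab14, at 1.33, and its direction also turned with both other scalings.

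Among the Rabs of late endosomes, lysosomes and autophagosomes, 5 of 7 were lower and 2 higher in leukaemia with the authors' scaling. With the table total 3 were lower and 3 higher. The class medians were -0.28 and 0.13, beside -0.16 and 0.43 for all tested genes, of which 50.7% and 27.6% were lower. Rab7, which takes late endosomes and phagosomes to the lysosome, had 8890, 9016, 8195, 9038 and 8647 normalised reads in leukaemia and 17932, 23711, 19125, 24482 and 19292 in the myeloid libraries. The groups were well separated, with myeloid replicates 2 and 4 highest, and Rab7 was 2.39-fold lower (log2 difference -1.19, SE 0.090, limma adjusted p = 3.47e-08). Rab7b, a relative that acts between late endosomes and the trans-Golgi network, went the other way. Its values were 650, 553, 544, 441 and 474 in leukaemia and 160, 184, 189, 153 and 148 in the myeloid libraries, with no overlap, at 3.19-fold higher (log2 difference 0.76, SE 0.064, limma adjusted p = 1.06e-07). Rab32, which works in lysosome-related organelles, was 2.11-fold lower (3145 ± 256 against 6641 ± 896). Rab9, a late endosome to Golgi Rab, was 1.16-fold higher in overlapping groups (adjusted p = 0.0356 by limma), and that call was lost without any one of 5 libraries (leukaemia replicate 1 or 2, or myeloid replicate 3, 4 or 5).

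Rabs of the endoplasmic reticulum and Golgi were lower for 7 of 8 genes with the authors' scaling, and for 4 of 8 with the table total, where 2 were higher. Rab6a, which controls traffic through the Golgi, had the largest difference of the class. Its leukaemia libraries held 2692, 2702, 2601, 2805 and 2522 normalised reads and its myeloid libraries 9113, 14281, 11319, 15242 and 11344. The groups did not overlap and the fold was 4.60 (log2 difference -1.97, SE 0.113, limma adjusted p = 2.49e-09). Rab6a overlaps Mrpl48 in the annotation by gene span, and exons and strand were not compared. Whether reads of the pair are mixed cannot be told here, since the sources used do not give the strand setting of the counting. Rab43 was 2.56-fold lower, while the endoplasmic reticulum exit Rabs Rab1a and Rab1b were 1.61-fold and 1.27-fold lower with the authors' scaling and Rab1b was higher with the others (log2 differences 0.25 and 0.29). Rab3gap2, a subunit of the exchange factor for Rab18, was the one gene of the class that was higher, at 1.23-fold (3945 ± 312 against 3216 ± 159).

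Secretory Rabs and their regulators were lower for 10 of 11 genes with the authors' scaling, of which 7 stayed lower and Rab40c turned to higher with the table total. Rab3d, a Rab of secretory granules, had 3059, 3256, 2767, 3384 and 3037 normalised reads in leukaemia and 13710, 20258, 13966, 19552 and 15092 in the myeloid libraries. Even the lowest myeloid library was far above the highest leukaemia library, and the fold was 5.33 (log2 difference -2.21, SE 0.110, limma adjusted p = 7.11e-10). Rab8b, which acts in polarised secretion, was 3.30-fold lower (3842 ± 517 against 12685 ± 1589), and its isoform Rab8a 2.11-fold lower. Rab37, a secretory Rab, was 2.85-fold lower, with 287 to 445 normalised reads in leukaemia and 991 to 1109 in the myeloid libraries, and it overlaps Cd300lf in the annotation. Rab10, which serves exocytosis and recycling, was 1.52-fold lower with the authors' scaling and was not called under quantile normalisation (log2 difference -0.11) or the table total (0.03).

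Rab44, a large Rab with further domains beside its GTPase domain, was the exception of the secretory class. It had 29618, 29057, 38516, 36415 and 38930 normalised reads in leukaemia and 16083, 24078, 17570, 30757 and 18816 in the myeloid libraries. Myeloid replicate 4 lay above leukaemia replicates 1 and 2, so the groups overlapped, and the mean was 1.61-fold higher in leukaemia (log2 difference 0.70, SE 0.162, limma adjusted p = 0.00109). Without myeloid replicates 2 and 4 the log2 difference was 0.95.

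Granule exocytosis in cytotoxic cells and neutrophils depends on Rab27a, its effector Unc13d (Munc13-4), Stxbp2 (Munc18-2) and the syntaxin Stx11, genes whose inherited loss causes immune deficiency with haemophagocytosis in humans. All of them were lower in leukaemia in all scalings, by unequal amounts. Stx11 had 1096, 1005, 917, 1026 and 919 normalised reads in leukaemia and 7850, 12093, 8298, 11752 and 8514 in the myeloid libraries. This was the lowest log2 difference of any tested traffic gene (-2.74, SE 0.113, limma adjusted p = 1.37e-10), a fold of 9.77 with no overlap. Unc13d had 2586, 2684, 2801, 2869 and 2911 normalised reads in leukaemia and 7223, 9808, 7596, 10076 and 7787 in the myeloid libraries. It was 3.07-fold lower (log2 difference -1.44, SE 0.090, limma adjusted p = 6.09e-09), again without overlap. Stxbp2, which chaperones Stx11, had 5727, 5977, 5852, 6213 and 6490 normalised reads in leukaemia and 11053, 15247, 12433, 14023 and 12604 in the myeloid libraries. The groups were apart at 2.16-fold (log2 difference -1.04, SE 0.082, limma adjusted p = 5.48e-08). Rab27a had 6678, 7514, 7044, 7596 and 7059 normalised reads in leukaemia and 10664, 14429, 11640, 14443 and 12263 in the myeloid libraries, the smallest difference of the 4 genes at 1.77-fold (log2 difference -0.77, SE 0.086, limma adjusted p = 1.9e-06). In each of these genes myeloid replicates 2 and 4 were the highest libraries.

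**Figure D2:**
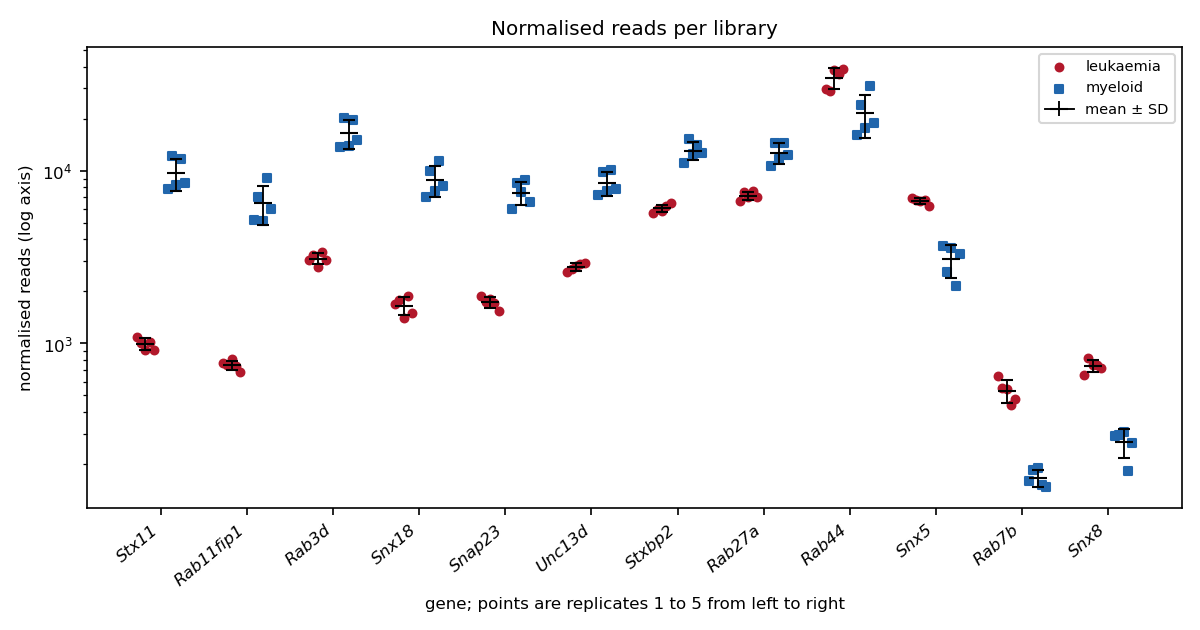
Normalised reads (log axis) in each library for 12 traffic genes, leukaemia as red circles and myeloid as blue squares in replicate order from left to right, with mean ± SD over 5 libraries. Stx11, Rab11fip1, Rab3d, Snx18, Snap23, Unc13d, Stxbp2 and Rab27a are lower in every leukaemia library than in every myeloid library, Snx5, Rab7b and Snx8 are higher, and Rab44 overlaps.

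All 7 tested syntaxins were lower in leukaemia with the authors' scaling (median log2 difference -0.78). With the table total 4 were called lower and 3 were not called. The shares of all tested genes that were lower were 50.7% and 27.6%. Stx17, the syntaxin of autophagosomes, was 3.20-fold lower (1072 ± 103 against 3433 ± 414). Stx3, a plasma membrane syntaxin, was 2.75-fold lower, with 233 to 326 normalised reads in leukaemia and 645 to 877 in the myeloid libraries. Stx7, which acts in late endosome fusion, was 2.08-fold lower. Stx2, a plasma membrane syntaxin, was 1.57-fold lower with the authors' scaling and was not called with the table total (log2 difference -0.003).

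Vamp and Snap proteins were lower for 7 of 9 genes with the authors' scaling, of which 6 stayed lower and 1 was not called with the table total. Vamp5, a plasma membrane Vamp first described in muscle, had the largest fold among the tested traffic genes. Its values were 70.4, 70.2, 48.2, 90.0 and 74.2 normalised reads in leukaemia and 1111, 1456, 1004, 1270 and 985 in the myeloid libraries, a fold of 16.5 without overlap (log2 difference -1.84, SE 0.078, limma adjusted p = 1.8e-10). Its leukaemia level lies near the low end of the table, where the deposited scale compresses differences. Snap23, the plasma membrane partner of these syntaxins in non-neuronal cells, had 1872, 1728, 1809, 1723 and 1538 normalised reads in leukaemia and 6040, 8478, 7487, 8790 and 6574 in the myeloid libraries. It was 4.31-fold lower (log2 difference -1.81, SE 0.094, limma adjusted p = 9.9e-10), and every myeloid library was above every leukaemia library. Vamp2, Vamp3 and Vamp8, vesicle SNAREs of secretory granules and endosomes, were 2.41-fold, 2.38-fold and 1.89-fold lower. The genes that were higher were Snap47, at 2.09-fold (234 ± 42.1 against 112 ± 13.9), and Vamp1, at 1.20-fold in overlapping groups. Stxbp3, a partner of plasma membrane syntaxins, was 3.10-fold lower and Stxbp6 2.44-fold lower, so that all 4 tested Stxbp and Unc13 genes were lower in all scalings.

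Within the sorting group the tethering complexes differed in direction from the ESCRT genes. HOPS and CORVET tether late and early endosomes, and GARP and EARP tether vesicles at the Golgi and recycling endosomes. Of 10 tested subunits 8 were higher in leukaemia and 2 lower, a median log2 difference of 0.24. With the table total 9 were higher and only Vps54 was lower. Of all tested genes 49.1% were higher with the authors' scaling and 57.2% with the table total. The differences were small for most subunits. Vps16, of the core shared by HOPS and CORVET, had 2764, 2625, 2819, 2677 and 2881 normalised reads in leukaemia and 2163, 1925, 2125, 1891 and 2125 in the myeloid libraries. The groups did not overlap, and the fold was 1.35 (log2 difference 0.35, SE 0.052, limma adjusted p = 2.75e-05). The other core subunits Vps33a and Vps18 were 1.28-fold and 1.17-fold higher, the CORVET subunit Vps8 1.38-fold, the HOPS subunit Vps39 1.20-fold and Vps33b, of a related complex, 1.24-fold, with overlapping groups for Vps18 and Vps39.

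The Golgi and recycling tethers were split. Vps50, the subunit that distinguishes EARP from GARP, had 1119, 974, 1007, 922 and 1001 normalised reads in leukaemia and 563, 487, 582, 378 and 614 in the myeloid libraries. It was 1.91-fold higher without overlap (log2 difference 0.59, SE 0.072, limma adjusted p = 4.52e-06). Vps54, the corresponding subunit of GARP, had 2544, 2101, 2318, 1909 and 2315 normalised reads in leukaemia and 4648, 6538, 5387, 7035 and 5562 in the myeloid libraries. It was 2.61-fold lower, also without overlap (log2 difference -1.19, SE 0.0999, limma adjusted p = 1.04e-07), and it overlaps Ugp2 in the annotation. Of the subunits that both complexes share, Vps53 was 1.27-fold higher, and Vps52 was 1.21-fold lower with the authors' scaling and higher with the table total (log2 difference 0.37).

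The ESCRT genes, whose complexes bud vesicles into multivesicular bodies, were lower for all 6 tested with the authors' scaling and under quantile normalisation, and Vps4a turned to higher with the table total (log2 difference 0.29). The ESCRT-I subunits Vps37a, Vps37b and Vps37c were alike, at 2.12-fold, 2.16-fold and 2.30-fold lower. Vps37c had 1076, 1075, 1187, 1161 and 1182 normalised reads in leukaemia and 2649, 2681, 2513, 2503 and 2697 in the myeloid libraries, a tight separation (log2 difference -0.92, SE 0.048, limma adjusted p = 9.98e-10). Vps37a overlaps Cnot7 and Mtmr7 in the annotation. Vps28, of the same complex, was 1.76-fold lower. Vps4b, one of the ATPases that take ESCRT-III apart, was 1.77-fold lower (3969 ± 251 against 7008 ± 521), and its paralogue Vps4a 1.27-fold lower.

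**Figure D3:**
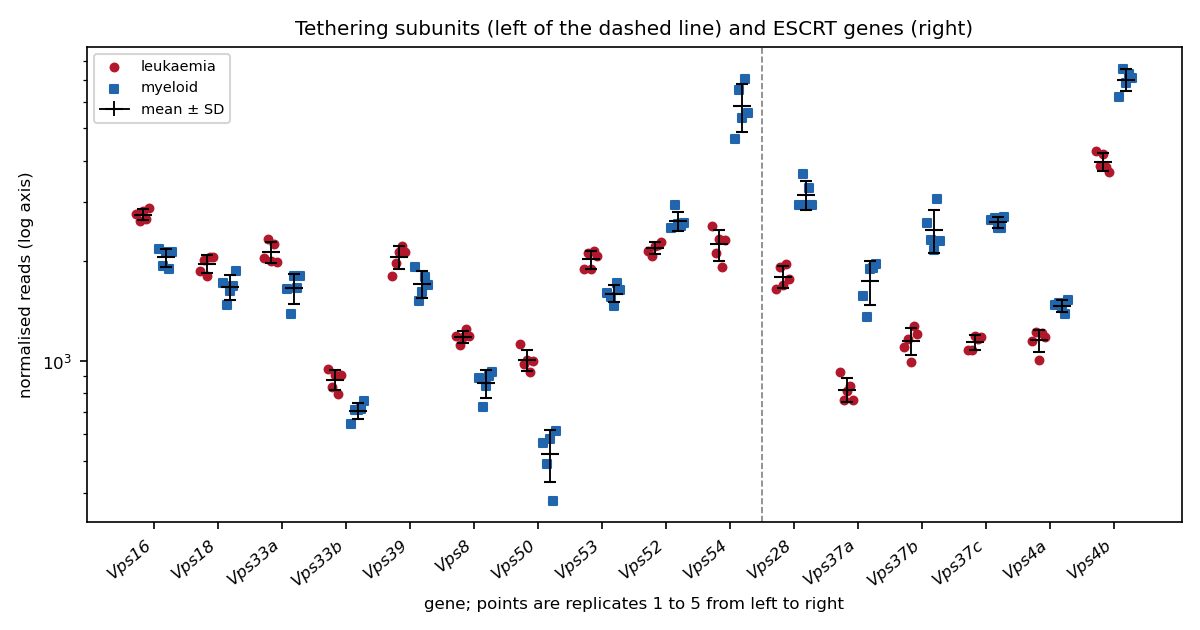
Normalised reads (log axis) in each library for 10 subunits of the HOPS, CORVET and GARP tethers (left of the dashed line) and 6 ESCRT genes (right of it), leukaemia as red circles and myeloid as blue squares, with mean ± SD over 5 libraries. The tethers are mostly slightly higher in leukaemia, with Vps54 and Vps52 below, whereas each ESCRT gene is lower in every leukaemia library than in every myeloid library.

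Retromer, which returns receptors from endosomes to the Golgi and the cell surface, and the related retriever were lower for 5 of 6 genes with the authors' scaling. With the table total none was called lower and 4 were called higher, where 57.2% of all tested genes were higher. The class median was then 0.23, below the 0.43 of all tested genes, and with the authors' scaling it was -0.36 beside -0.16. Vps35, the retromer core, had 6285, 5958, 5617, 6241 and 5611 normalised reads in leukaemia and 6429, 9332, 8227, 8561 and 7387 in the myeloid libraries. Myeloid replicate 1 lay just above the highest leukaemia library, and the log2 difference was -0.39 (1.34-fold lower, limma adjusted p = 0.000964), but it was 0.19 under quantile normalisation and 0.22 with the table total. Vps26a, Vps26b and Vps26c were 1.32-fold, 1.57-fold and 1.46-fold lower with the authors' scaling, and with the table total Vps26a was called higher and the others were not called. Vps35l, the retriever counterpart of Vps35, was 1.21-fold higher (2825 ± 136 against 2340 ± 152) and higher in the other scalings too.

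The remaining Vps genes moved both ways. Vps9d1, named for a domain found in Rab5 exchange factors, had 775, 666, 710, 752 and 744 normalised reads in leukaemia and 2374, 2528, 2504, 2526 and 2554 in the myeloid libraries. Both groups were narrow, and it had the lowest adjusted p of the traffic genes (3.42-fold lower, log2 difference -1.30, SE 0.047, limma adjusted p = 4.18e-11). Vps9d1 overlaps Zfp276 in the annotation. Other genes described here that overlap a protein-coding gene are Rab5a (Pp2d1), Rab5b (Pmel), Rab3gap2 (Iars2), Snap29 (Pi4ka), Snap47 (Jmjd4), Vamp3 (Gm38529), Unc13a (Colgalt1), Unc13b (Fam214b), Vps13d (Dhrs3), Vps16 (Pced1a), Vps26b (Thyn1), Vps72 (Tmod4), Snx12 (Slc7a3) and Snx32 (1700020D05Rik), and the same limit applies to them. Of the lipid transfer proteins of the Vps13 family, Vps13c was 1.47-fold higher and Vps13d 2.04-fold lower. Vps13b was 1.60-fold lower but was not called with the other scalings (log2 differences -0.04 and -0.03). Vps13a was 1.27-fold higher in overlapping groups (adjusted p = 0.0278 by limma), and the call was lost without leukaemia replicate 1 or 3 or myeloid replicate 1 or 2. Vps45, a partner of endosomal syntaxins, and the chromatin subunit Vps72 were 1.47-fold and 1.42-fold higher.

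Among sorting nexins with a BAR domain, which shape endosomal tubules, 6 of 9 were lower and 3 higher with the authors' scaling. With the table total 2 were lower and 3 higher. Of all tested genes 50.7% were lower and 49.1% higher with the authors' scaling, and 27.6% and 57.2% with the table total. The class medians were -0.33 and 0.16, beside -0.16 and 0.43 for all tested genes. Snx18, which acts in endocytosis and autophagy, had 1698, 1778, 1401, 1880 and 1507 normalised reads in leukaemia and 7070, 10015, 7585, 11434 and 8144 in the myeloid libraries. It was 5.35-fold lower (log2 difference -2.09, SE 0.117, limma adjusted p = 2.09e-09), with myeloid replicates 2 and 4 highest. Snx5 and Snx6, close relatives that pair with Snx1 or Snx2 in endosomal tubule coats, moved in opposite directions. Snx5 had 6914, 6803, 6673, 6741 and 6245 normalised reads in leukaemia and 3684, 2591, 3579, 2151 and 3311 in the myeloid libraries, 2.18-fold higher without overlap (log2 difference 1.02, SE 0.112, limma adjusted p = 1.45e-06). Myeloid replicates 2 and 4 were the lowest here, and the log2 difference was 0.98 without replicate 2, 0.92 without replicate 4 and 0.83 without both, under the 1 unit used above. Snx6 had 1655, 1609, 1619, 1792 and 1581 normalised reads in leukaemia and 3315, 3434, 3318, 3236 and 3349 in the myeloid libraries. It was 2.02-fold lower, with a narrow spread in both groups (log2 difference -0.83, SE 0.048, limma adjusted p = 2.8e-09). Their partners Snx1 and Snx2 were 1.41-fold and 1.31-fold lower in overlapping groups, and neither was called under quantile normalisation or the table total. Snx8, which sorts cargo from endosomes to the Golgi, had 657, 819, 754, 753 and 723 normalised reads in leukaemia and 290, 297, 309, 183 and 265 in the myeloid libraries. Its groups were apart at 2.76-fold higher (log2 difference 0.78, SE 0.066, limma adjusted p = 1.21e-07).

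Other sorting nexins were lower for 9 of 12 genes and higher for 3 with the authors' scaling. With the table total 7 were lower and 5 higher. In these scalings 50.7% and 27.6% of all tested genes were lower. Snx10, which acts in lysosome and osteoclast function, was 3.09-fold lower (1482 ± 300 against 4573 ± 386). Snx20, which binds the neutrophil adhesion receptor PSGL-1, was 3.10-fold lower, with 832 to 1135 normalised reads in leukaemia and 2688 to 3309 in the myeloid libraries. Snx27, a retromer adaptor, was 1.77-fold lower. Snx19 and Snx12 were 1.42-fold and 1.31-fold higher without overlap, each with leukaemia replicate 4 as the highest library.

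The promoters of the traffic genes were read for 4 short motifs, to show what the genes with opposite differences hold upstream. RefSeq promoter sequences (GRCm38.p6) were at hand for 96 of the 127 genes, and the 250 bases before each start were searched on both strands. CACGTG, the core that bHLH leucine zipper factors such as Myc, Tfeb and Usf bind, was present in 14 of 87 tested traffic genes with a promoter (16.1%), in 6.86% of all 27025 genes with a promoter and in 10.6% of 6512 tested genes. It was found in 5 of the 17 higher genes (Snx5, Snx8, Vps16, Vps33a and Rab3gap2) and in 9 of the 70 lower genes (12.9%). The motif GAGGAAGT, a form of the PU.1 site, was found in 1 of the 87 (1.15%), in 2.79% of all promoters and in 3.33% of those of tested genes. TTGCNNAA, a relaxed C/EBP site, was found in 7 (8.05%), in 10.8% and in 8.72%, and the Ets form CCGGAAGT in 8 (9.20%), in 3.23% and in 7.59%. The shares of these 3 motifs in the traffic genes were near those of tested genes or rested on 1 gene. None of these motifs overlaps another in letters, apart from the shared GGAAGT of the PU.1 and Ets forms. The stretches of 4 genes that were higher in leukaemia and 2 that were lower follow, with CACGTG in capitals. They were picked as examples with both directions, and the other genes that hold the letters, Stxbp2 among them, are not shown. They read 5′ to 3′ on the gene's own strand, and a match describes the letters only.
Snx5 (chr2:144270573-144270822, minus strand): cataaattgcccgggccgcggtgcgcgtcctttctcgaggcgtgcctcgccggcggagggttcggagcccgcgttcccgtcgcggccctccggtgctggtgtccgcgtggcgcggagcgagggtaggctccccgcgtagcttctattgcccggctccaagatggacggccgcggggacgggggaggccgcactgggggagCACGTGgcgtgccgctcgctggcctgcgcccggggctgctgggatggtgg
Snx8 (chr5:140389309-140389558, minus strand): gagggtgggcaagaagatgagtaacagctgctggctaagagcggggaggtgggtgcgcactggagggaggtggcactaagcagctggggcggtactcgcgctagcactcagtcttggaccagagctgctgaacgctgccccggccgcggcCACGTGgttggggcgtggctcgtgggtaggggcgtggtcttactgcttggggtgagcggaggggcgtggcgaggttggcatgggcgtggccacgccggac
Vps16 (chr2:130424070-130424319, plus strand): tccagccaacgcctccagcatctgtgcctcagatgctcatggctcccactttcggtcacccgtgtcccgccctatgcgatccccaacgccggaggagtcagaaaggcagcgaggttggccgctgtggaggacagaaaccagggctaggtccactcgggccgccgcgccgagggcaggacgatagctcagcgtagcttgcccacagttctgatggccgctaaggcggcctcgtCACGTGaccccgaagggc
Vps33a (chr5:123573016-123573265, minus strand): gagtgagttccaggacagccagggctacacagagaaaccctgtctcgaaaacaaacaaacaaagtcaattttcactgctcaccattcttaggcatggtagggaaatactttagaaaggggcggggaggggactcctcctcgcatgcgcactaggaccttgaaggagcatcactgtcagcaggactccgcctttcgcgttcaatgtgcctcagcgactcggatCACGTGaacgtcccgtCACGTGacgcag
Snx18 (chr13:113618565-113618814, minus strand): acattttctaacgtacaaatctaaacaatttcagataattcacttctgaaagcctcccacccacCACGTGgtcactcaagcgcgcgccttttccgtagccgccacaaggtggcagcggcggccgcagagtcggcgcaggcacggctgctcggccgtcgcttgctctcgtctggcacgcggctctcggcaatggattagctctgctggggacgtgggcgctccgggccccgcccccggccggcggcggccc
Rab27a (chr9:73063898-73064147, plus strand): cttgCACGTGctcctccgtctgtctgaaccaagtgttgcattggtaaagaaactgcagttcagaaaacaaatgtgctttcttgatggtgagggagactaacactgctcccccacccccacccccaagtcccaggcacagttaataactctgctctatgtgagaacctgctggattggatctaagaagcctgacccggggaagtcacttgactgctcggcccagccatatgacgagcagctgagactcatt

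Snx5, Vps16 and Vps33a carry the letters in the part of the stretch nearest the start, and Vps33a carries them at 2 places. Genes that were lower with the authors' scaling, and are not shown, do so too. Stxbp2 carries them near the start, and Rab5a and Vps26a each carry them at 2 places of the same stretch. Rab27a has a second promoter in the same table, and that one holds none of the 4 motifs. The same letters stand upstream of Snx5 and Snx8, which were 2.18-fold and 2.76-fold higher in leukaemia, and of Snx18 and Rab27a, which were 5.35-fold and 1.77-fold lower.

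Close relatives mostly had the same direction, but 77.7% of the tested traffic genes were lower, so many unrelated members share a direction too. More families were opposite with the table total, as given further below. Of 31 paralogue families listed, 20 had at least 2 tested members, and in 17 of them all members had the same direction with the authors' scaling. Members were in opposite directions in Rab7 and Rab7b (log2 differences -1.19 and 0.76), in Snx5 and Snx6 (1.02 and -0.83), and in Snx18 and Snx33 (-2.09 and 0.27). The first 2 of these families were opposite and called in every scaling. Snx33 had 235 to 335 normalised reads in leukaemia and 120 to 261 in the myeloid libraries, which overlap, and under quantile normalisation it was not called (log2 difference 0.10). Within families of 1 direction the sizes still differed, as for Snap23 and Snap29 (4.31-fold and 1.65-fold lower) or Rab11a and Rab11b (2.65-fold and 1.42-fold lower with the authors' scaling). Reads shared between near-identical relatives could be split by the counting, whose method is not given in the sources used here.

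**Figure D4:**
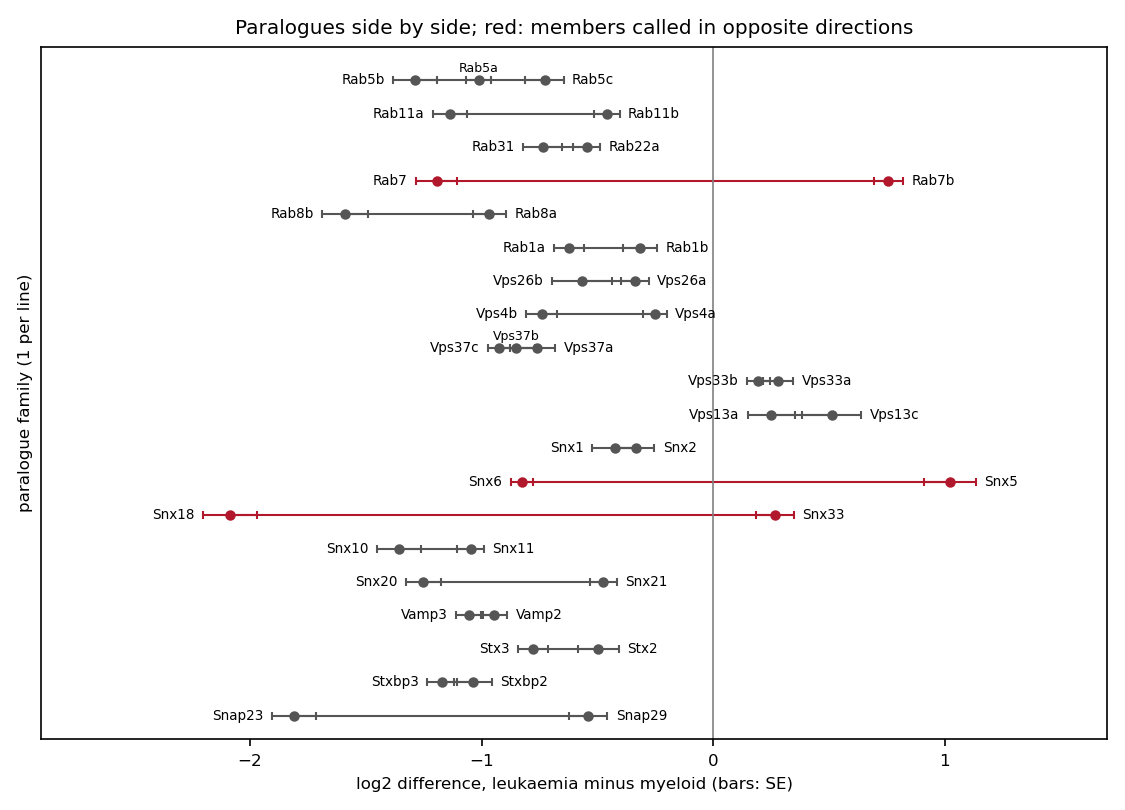
Log2 differences (leukaemia minus myeloid, deposited scale, capped bars are SE) of the members of 20 paralogue families with at least 2 tested members, one row per family with a line joining its members. The 3 families in red have members on both sides of 0, and the widest of them is Snx18 and Snx33 (-2.09 and 0.27).

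The 15 genes below the filter were not part of these counts. Tested with no filter, 10 of them were higher and 5 lower in leukaemia, at levels where few reads carry each value, beside 57.4% higher and 40.8% lower of all 2062 genes below the filter. Stxbp4 was 5.33-fold higher (181 ± 45.8 against 33.9 ± 14.3), and the neuronal priming factor Unc13a 2.23-fold higher (126 ± 27.9 against 56.4 ± 13.2). Unc13b had means of 24.5 normalised reads in leukaemia and 7.47 in the myeloid libraries. Snx7, Snx16 and Rab11fip3 were 3.57-fold, 2.23-fold and 3.22-fold higher, with no overlap. Rab34 had 191 reads in leukaemia and 10 in the myeloid libraries, and Rab25 had 77 and 7. Rab27b, the second Rab27 isoform, had 2 reads over the leukaemia libraries and 87 over the myeloid libraries, and Rab38, the relative of Rab32, had 10 and 155. For Rab27b the myeloid values were 45.5, 2.36, 26.9, 6.31 and 25.8 normalised reads, lowest in replicates 2 and 4. Rab13, Rab36 and Rab6b were 3.57-fold, 2.09-fold and 2.42-fold lower, and the Rab6b groups overlapped.

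Genes that work with these families but carry other names were described from 6 lists. Of all tested genes 50.7% were lower with the authors' scaling and 27.6% with the table total (medians -0.16 and 0.43). Of 65 tested Rab regulators and effectors 50 (76.9%) were lower and 15 higher (median log2 difference -0.52). With the table total 27 (41.5%) were lower and 22 higher (median -0.04). Tbc1d10c, a leukocyte protein with a Rab GTPase-activating domain, had 172 ± 46.5 normalised reads in leukaemia and 4809 ± 914 in the myeloid libraries, 27.9-fold lower, and Rabggtb, a subunit of the enzyme that attaches lipids to Rabs, was 2.60-fold higher. The partners of ESCRT, retromer and endosomes were lower for 30 of 47 genes (63.8%), and for 12 (25.5%) with the table total. They ranged from Ehd1, a membrane-remodelling ATPase of recycling endosomes (5.54-fold lower), to Ccdc22, a subunit of the Commander complex that holds retriever (2.47-fold higher). Other SNAREs, NSF and their partners were lower for 8 of 14 (57.1%), and for 3 (21.4%) with the table total, near the shares of all tested genes. They ranged from Sec22c (2.03-fold lower) to Nbas, a partner of the endoplasmic reticulum SNAREs (2.53-fold higher).

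Tethering complexes with other names did not share the direction of the HOPS and CORVET subunits with the authors' scaling, as 28 of 35 (80%) were lower. With the table total 18 (51.4%) were higher and 8 (22.9%) lower, beside 57.2% and 27.6% of all tested genes. Their median was then 0.23, below the 0.43 of all tested genes. The exocyst subunit Exoc6 was 2.33-fold lower and the Golgi tether Cog7 2.12-fold higher. Coats and adaptors were lower for 27 of 42 (64.3%), and for 8 (19.0%) with the table total. Their medians (-0.22 and 0.35) were near those of all tested genes. Picalm, a clathrin assembly protein, was 5.96-fold lower and Sec16b, which acts at endoplasmic reticulum exit sites, 16.1-fold higher (1852 ± 300 against 115 ± 21.5). Regulated secretion partners were lower for 13 of 18 (72.2%), and for 6 (33.3%) with the table total. The lysosome trafficking regulator Lyst was 5.30-fold lower (6480 ± 661 against 34346 ± 9000) and the BLOC-1 subunit Dtnbp1 1.72-fold higher. The 12 genes named from these lists kept their direction in all scalings run. They were picked as the extremes of each list in the main fit, so this was no check on them.

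Variation within the groups was larger on the myeloid side. The median SD on the deposited scale was 0.083 in leukaemia and 0.126 in the myeloid group over the tested traffic genes, beside 0.088 and 0.128 over all tested genes, and it was larger in the myeloid group for 82 of 112 traffic genes and 5883 of 8079 tested genes. Of the 42 tested Rab genes, the highest myeloid value fell in replicate 2 for 14 and in replicate 4 for 17. In the SNARE group this was so for 6 and 8 of 20, and in the sorting group for 12 and 14 of 50, beside 31.5% and 29.9% of all tested genes. The lowest myeloid value fell in replicate 1 for 53 of the 112 genes, beside 2479 of the 8079 tested genes.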

How the data were processed

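The authors deposited 1 table of log2 values, variance-stabilised after size-factor normalisation, for 10141 genes in 5 leukaemia and 5 myeloid libraries. HISAT2 (2.0.4 and 2.2.1) and DESeq2 are named per the submitters' processing notes, and the build, annotation, counter and strand setting are not given in the sources used here. The stabilising function was inverted from the lowest value shared by all libraries (8.1823, which stands for 0 reads), which gave size factors and whole reads for 100% of low values. A counted read may be part of a pair. Tests used limma 3.58.1 in R 4.3.3 on the deposited values of 8079 genes, leukaemia minus myeloid, 2 groups with no covariate, with trended prior variance, two-sided, and Benjamini-Hochberg adjustment over all genes tested. The fit was tested on simulated data in which most genes did not change and both groups had the same spread. These libraries differ from that, since nearly all genes are called, so the simulation does not vouch for the calls here.

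Members and lists were chosen with earlier results of these data known. Named genes were, in each role class, up to 2 highest and 2 lowest passing genes without overlap, the gene with most reads, a fixed set, printed paralogue families and the extremes of each pathway list. Others were named after their values were seen, to complete a complex, class or the set below the filter. Some members are counted but not reported here by name. Cell type lists were sums of normalised reads of markers. Of the sort and leukaemia genes, leukaemia and myeloid means (normalised reads, SD, n = 5) were 3215 ± 329 and 16.0 ± 5.3 for Hoxa9 and 3737 ± 261 and 96.6 ± 29.8 for Meis1. For Itgam (CD11b) they were 12227 ± 1128 and 97794 ± 13873, and for Ptprc 13376 ± 2449 and 68302 ± 3507. Promoters came from RefSeq (GRCm38.p6). In the annotation 21 members overlap another protein-coding gene by gene span, 30 a long non-coding RNA and 47 either, with exons and strand not compared. Alternatives were no or a stricter filter, quantile normalisation, voom on recovered reads with the authors' or total scaling, a replicate block, an untrended prior and leaving out libraries.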

Additional observations from a re-analysis of the deposited data

Results flagged for a closer look

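Within groups of 5 libraries, 6 of 150 gene and group combinations (4%) had a highest or lowest library whose gap to its neighbour took more than 0.71 of the group's range, where chance alone marks about 1 in 20. In leukaemia, replicate 1 was the highest for Rab8b (4736 normalised reads, next 3774), and replicate 4 for Snx12 (1927, next 1638) and Snx19 (1571, next 1474). In the myeloid group, replicate 4 was the highest for Rab22a (2431, next 2117), replicate 2 for Vps52 (2943, next 2605), and replicate 1 the lowest for Vps9d1 (2374, next 2504). None of these 6 genes lost its call when any one library was left out.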

How the results depend on the processing

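Of 87 named genes, all kept their direction and their call with no filter, with voom and the authors' size factors, with the replicate block and with an untrended prior, and so did the 78 that remained under a filter of 2 units. The filters, the block and the untrended prior leave the log2 differences as they were, so they could change calls but not directions. Leaving out 1 library cost Vps13a its call among these 87 (4 of 10 libraries). Rab9, named in the text but not one of the 87, lost its call for 5 libraries. The cause of the changes below was not tested. Nearly all genes of the table pass, how they were chosen is not given in the sources used here, low genes are shrunken on the deposited scale, and the scaling decides directions for the small differences.

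With no filter the Rab group had 7 higher genes and a median log2 difference of -0.64, SNARE genes had 7 higher, Rab regulators had a median of -0.38, and 5 paralogue families were opposite. With the stricter filter 2 Rab and 1 SNARE genes were higher, the Rab median was -0.96, 3 of the other SNAREs were higher, 3 regulated secretion partners were higher and 8 lower, and 1 family was opposite.

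Under quantile normalisation, differences of at least 1 were 1 higher and 7 lower for Rab, 2 higher for sorting and 5 lower for SNARE genes. Medians were -0.50 (Rab), 0.0375 (sorting), -0.71 (SNARE), -0.39 (Rab regulators), -0.11 (ESCRT and retromer partners), 0.10 (other SNAREs), -0.18 (tethering, 18 lower) and 0.11 (coats, 12 lower). Reversed log2 differences were Rab11b 0.0876, Rab14 0.19, Rab1b 0.25, Snx1 0.0463, Snx2 0.0489, Vps26a 0.0751, Vps35 0.19 and Vps52 0.0808, and 6 named genes lost their call.

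With voom and the authors' size factors, differences of at least 1 were 1 higher and 23 lower for Rab, 2 and 13 for sorting, and 1 and 13 for SNARE genes. Medians were -1.08 (Rab), -0.40 (sorting), -1.18 (SNARE), -0.67 (Rab regulators), -0.51 (ESCRT and retromer partners), -0.40 (tethering), -0.28 (coats) and -0.60 (regulated secretion).

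Scaled to the table's total, 9 Rab genes were higher and 24 lower (2 higher by at least 1, median -0.44). Sorting had 17 lower (13 higher and 2 lower by at least 1, median 0.24), and SNARE genes had 1 higher and 4 lower by at least 1 (median -0.54). Rab regulators had 27 lower (median -0.0361), ESCRT and retromer partners 12 (0.13), other SNAREs 3 (0.36), regulated secretion partners 6 (0.0416), tethering complexes 18 higher and 8 lower (0.23), and coats 25 higher and 8 lower (0.35). Opposite families numbered 5. Reversed values were Rab10 0.0312, Rab11b 0.13, Rab14 0.22, Rab1b 0.29, Snx1 0.16, Snx2 0.25, Vps26a 0.25, Vps26b 0.0035, Vps26c 0.10, Vps35 0.22, Vps4a 0.29 and Vps52 0.37, and 7 named genes lost their call.

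Without myeloid replicates 2 and 4 no sorting gene (0) was higher by at least 1, and medians were -0.34 (ESCRT and retromer partners) and -0.28 (tethering). Leaving out 1 library gave 0 to 1 such sorting genes, 0 without myeloid replicate 2 or 4. It gave 3 to 5 higher and 38 lower Rab genes, 18 to 20 higher and 31 lower sorting genes, and 2 higher and 18 lower SNARE genes.

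The labels do not say that a replicate number marks a shared animal, batch or day. Correlations of deviations between same-numbered libraries were 0.13, 0.23, 0.32, 0.29 and -0.02, so 1 of 5 was not over 0.1 and the libraries were treated as unpaired. No number had both of its libraries correlating best with each other. With the replicate block, which leaves the log2 differences as they were, 25 traffic genes were higher and 87 lower, the same counts as without it.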
